A study of Mus musculus with 18 samples.

Results

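Activated fibroblasts and myofibroblasts are the cells that lay down and tighten new connective tissue after an injury. Their state is usually read from surface proteins, secreted matrix factors and the contractile apparatus of smooth muscle. Here 10 such genes, Lrrc15, Fap, Cthrc1, Acta2, Tagln, Pdgfra, Pdgfrb, Pdpn, Thy1 and Prrx1, were followed through 18 RNA-Seq libraries of mouse knee cartilage, and all 10 were found among the 49184 genes of the annotation. The genes were listed by name, but they were chosen by their levels in the injured knee at day 7, which were already known. For the 10 genes, the contrasts that hold those libraries are therefore given as a description: the numbers past the thresholds of the fit are shown beside those of all genes and support nothing, and FDRs are given only for the contrasts without those libraries.

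The study ruptured the anterior cruciate ligament of the right knee of male C57Bl/6J mice, 12 weeks old, with a single load of 12 N, and took the unloaded left knee as the contralateral control. Cartilage of the femoral condyle was collected at day 1 (3 injured and 3 contralateral libraries) and at day 7 (3 injured and 3 contralateral libraries), and 6 libraries came from naïve mice. The labels set the naïve libraries at day 7, so that contrasts of day 1 with naïve knees also differ in day. All mice were of this one strain and sex, and no altered gene or test compound is named for any group. Loading was done under isoflurane, and the analgesic buprenorphine was given when the experiment began. Each library pooled knees of several mice. The methods count 6 injured mice at day 1 and 12 at day 7, which is 2 and 4 mice per library if spread evenly over 3 libraries. The text of the series gives 4 throughout. The naïve libraries held left and right knees of 6 mice pooled apart, so that some of them come from the same mice. Which ones is not stated in the labels, and p-values over these libraries may be too small.

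Fibroblasts carry receptors for platelet-derived growth factor (PDGF), which answer to PDGF ligands from neighbouring cells. TGF-beta, released from its latent form in the matrix, drives the change to a myofibroblast, which builds stress fibres of smooth muscle actin. Serum response factor (SRF) and its cofactors of the myocardin family switch on these contractile genes through a sequence called the CArG box. None of the 10 genes belongs to 1 cell type only: Acta2 and Tagln are strong in vascular smooth muscle, Pdgfrb in pericytes, Pdpn in lymphatic endothelium, synovial lining and young osteocytes, and Thy1 in mouse T cells. In whole tissue, more cells of a type and more RNA per cell cannot be told apart.

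Levels are given as CPM, counts scaled to a common library size, after normalization across the 18 libraries, whose totals of estimated counts ranged from 16074762 to 41794005. Of the markers of the labelled cell type, the chondrocyte, Acan and Col2a1 had means of 372.3 and 3240.3 CPM in naïve cartilage. RNA of other tissues was abundant too, and no list of markers, of whichever cell type, had a gene at 0 in every library. The 7 erythroid genes summed to between 16677 and 64543 CPM in a library, and the 10 skeletal muscle genes to between 2899 and 14312 CPM.

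Several libraries stood apart before any group was compared. In library 13, a day 7 contralateral one, the 10 most abundant genes took 42.5% of the estimated counts, against 16.6% to 29.8% in the others. Libraries 3 (day 1 injured), 5 (day 1 contralateral) and 11 (naïve) had Pdpn far above the rest of their groups, and library 1 (day 1 contralateral) and library 6 (day 1 injured) had the highest Acta2 and Tagln of their groups. Where a value given for 1 of the 10 genes rests on one of libraries 1, 3, 5, 6 and 11, the value without it, or the range over left-out libraries, follows.

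Promoters of 5 of the 10 genes (Lrrc15, Acta2, Pdgfra, Pdpn and Prrx1) were present in the RefSeq table of GRCm38.p6, each with 250 bases before and 50 after the start. Those of Lrrc15 (chr16:30283205-30283504, minus strand), the gene with the largest difference at day 7, and Acta2 (chr19:34255324-34255623, minus strand), the smooth muscle actin by which myofibroblasts are named, are shown 5′ to 3′. Capitals mark letters of 2 motifs searched on both strands.
Lrrc15: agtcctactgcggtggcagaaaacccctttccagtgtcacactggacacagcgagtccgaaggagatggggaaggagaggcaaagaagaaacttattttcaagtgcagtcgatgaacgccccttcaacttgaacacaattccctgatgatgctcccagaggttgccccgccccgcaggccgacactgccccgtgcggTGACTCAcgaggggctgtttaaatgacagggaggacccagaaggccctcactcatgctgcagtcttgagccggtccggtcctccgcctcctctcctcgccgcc
Acta2: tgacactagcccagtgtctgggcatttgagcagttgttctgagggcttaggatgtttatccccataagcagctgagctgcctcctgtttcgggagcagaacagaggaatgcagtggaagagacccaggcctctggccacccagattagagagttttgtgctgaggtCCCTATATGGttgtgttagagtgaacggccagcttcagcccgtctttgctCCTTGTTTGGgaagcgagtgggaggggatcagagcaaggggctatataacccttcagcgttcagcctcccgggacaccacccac
In Lrrc15 the capitals match TGANTCA, the form bound by AP-1 factors, and begin 53 bases before the start. This motif was found in 1 of the 5 windows and in 7.81% of all 32851 windows in the table. In Acta2 the capitals match the CArG box with 1 of its 6 central letters free, CCCTATATGG from 84 bases and CCTTGTTTGG from 34 bases before the start. Such a run was in this 1 of the 5 windows and in 9.98% of all windows, and the strict CArG box in none of the 5 and in 1.63% of all. These motifs were picked after the windows had been read, and a match is a description of the letters only. Distances are counted from the start in the RefSeq table, and the annotated span of Acta2 reaches further upstream than its start there.

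**Figure D1:**
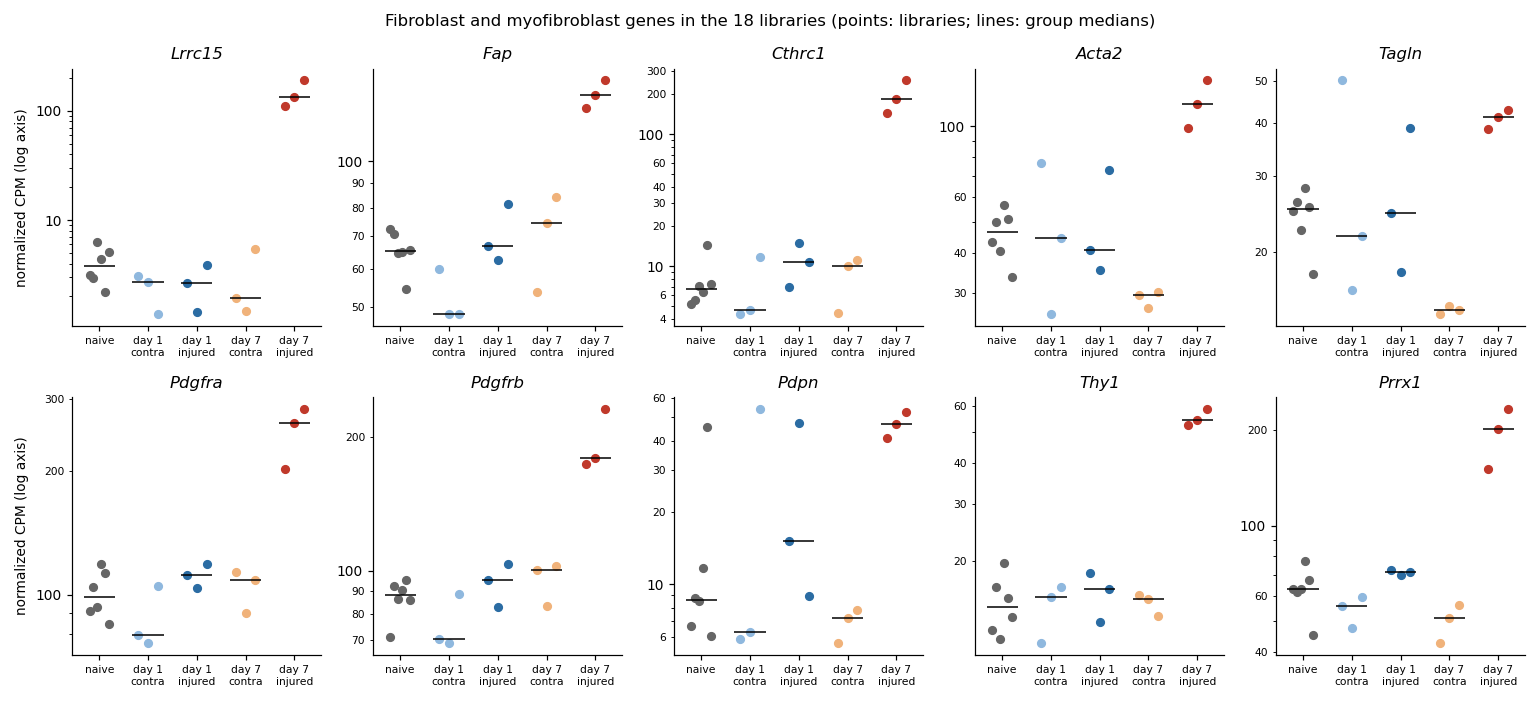
Normalized CPM (log axis, scaled for each gene) of the 10 genes in 6 naïve libraries and 3 libraries of each other group; points are libraries and lines are group medians. Day 7 injured libraries lie above the 15 others for 8 genes, and overlap with them for Tagln and Pdpn.

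At day 7 the injured knee held the highest group mean of all 10 genes. Lrrc15 and Cthrc1 differed most, by about 35.9-fold and 25.6-fold over the naïve mean, and the other 8 genes lay between 1.70-fold (Tagln) and 3.70-fold (Thy1). Pdpn was at 3.23-fold, which rested on naïve library 11: its log2 fold change was 1.69, and 2.50 without that library. Against naïve knees 9 of the 10 were called higher, all but Pdpn, where a call needed an FDR no greater than 0.05 and a change of 1.5-fold or more. Among all genes, 10.4% of the 21129 tested were called higher and 6.11% lower. Their median log2 fold change was 1.51, where the median of all genes tested was -0.04. All 10 were called higher against the day 7 contralateral knee (background 9.33%), or 9, without Pdpn, when any library of either group was left out, and 8 against the day 1 injured knee (background 9.04%), without Tagln and Pdpn. Since these libraries guided the choice of the genes, nothing is read from the counts.

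Summed over the 10 genes, the 3 day 7 injured libraries held 1141.2, 1357 and 1631.9 CPM, and the 15 others between 312.2 and 527.6 CPM. Every day 7 injured library was above the 15 others for 8 of the 10 genes, as for 11.9% of the 21262 genes of the 18-library fit. Without libraries 3, 5 and 11, left out after the data had been seen, the number was 9, with Pdpn added. The scale mattered for this count. The deposited TPM values divide by transcript length and are scaled only within a library. In them, 3 genes (Lrrc15, Cthrc1 and Thy1) kept all day 7 injured libraries above the 15 others, as did 1.43% of all genes. Above the naïve libraries alone the TPM count was 9 of the 10, all but Pdpn, beside 4.58% of all genes. It was 9 above the day 7 contralateral libraries (all but Fap, background 6.09%) and 3 above the day 1 injured ones (background 1.66%). On that scale the median of all genes stood 0.374 log2 units lower in day 7 injured than in naïve libraries. The 10 highest genes held 72.5% to 75.2% of the TPM of a day 7 injured library and 66.9% to 73.2% of a naïve one. They held 57.5% to 64.9% of a day 1 library and 83.8% of library 13.

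Among the surface proteins, Lrrc15 (chr16:30269302-30283256) differed most. It encodes a leucine-rich repeat membrane protein that marks TGF-beta-activated fibroblasts. It lay at 110.1, 132.4 and 190.1 CPM in the day 7 injured libraries. The naïve libraries ran from 2.19 over a median of 3.77 to 6.32 CPM, and the 9 others from 1.38 to 5.41 CPM. No other library came near the injured knee at day 7, and the rest formed a single low range whichever knee or day they came from. Its log2 fold change was 5.16 (SE 0.312) over naïve knees and 5.55 (SE 0.506) over the day 7 contralateral ones, where library 15 was the highest at 5.41 CPM. Without library 15 the latter was 6.41. The annotation holds 1 transcript of Lrrc15, so that its isoforms could not be compared.

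The 3 genes whose log2 CPM followed Lrrc15 most closely over the 18 libraries were Capn6, Cpxm1 and Edil3 (Pearson r 0.979, 0.979 and 0.978, among 21261 other genes). Capn6, an atypical calpain, had means of 12.9 CPM in naïve and 119.3 CPM in day 7 injured knees. Edil3, a secreted integrin-binding protein, had means of 20.2 and 100.9 CPM in the same groups. The 18 libraries share their groups, so that this and the other correlations are given as descriptions.

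Fap (chr2:62500943-62574075), a surface protease of stromal cells, was less confined to the injured knee. It lay at 128.7, 136.9 and 147 CPM in the day 7 injured libraries and between 48.3 and 84.3 CPM in the 15 others. Its log2 fold change over naïve knees was 1.09 (SE 0.0992), a smaller difference than that of Lrrc15 from a level that was already high. The 3 day 7 contralateral libraries were spread from 53.7 to 84.3 CPM, with library 13 the lowest.

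Thy1 (chr9:44043384-44048579), a glycolipid-anchored surface protein of fibroblasts, separated the injured knee of day 7 from all other libraries. The day 7 injured libraries lay at 52.4, 54.1 and 58.6 CPM. The naïve libraries ran from 11.5 over a median of 14.5 to 19.7 CPM, and no other library exceeded 18.4 CPM. The groups did not overlap, and the 4 other groups had means within 14.5 to 15.9 CPM. Of 9 T cell markers, none was called over naïve knees, beside 10.4% of all genes called higher and 6.11% lower. The median of the markers was -0.07. They ran from Trac (0.24, SE 0.307) and Cd247 (0.20, SE 0.292) down to Cd8a (-0.61, SE 0.225). Trac, the constant part of the T cell receptor, lay at 1.91, 1.84 and 2.04 CPM at day 7 after injury, inside the naïve range of 0.84 to 2.49 CPM. The part of T cells in the level of Thy1 was not tested. A retained-intron transcript of Thy1 took 11.2% to 26.5% of its TPM in naïve libraries and 2.56% to 3.13% in day 7 injured ones, where the lowest share among the 15 other libraries was 11.2%.

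Pdpn (chr4:143267431-143299564), the mucin-type glycoprotein podoplanin, did not follow the groups. It lay at 40.8, 47.1 and 52.4 CPM in the day 7 injured libraries, but at 54.1 CPM in library 5 (day 1 contralateral), 47.5 CPM in library 3 (day 1 injured) and 45.5 CPM in library 11 (naïve). Library 2 (day 1 injured) held 15.2 CPM, and the 11 others between 5.69 and 11.7 CPM. A single library in each of the naïve, day 1 contralateral and day 1 injured groups therefore reached the range of the injured knee at day 7, and none of the day 7 contralateral group did. The log2 fold change over naïve knees was 1.69 (SE 0.733), and 2.50 without library 11, when Pdpn was called.

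The genes most like Pdpn over the 18 libraries were Slc39a14, Il1r1 and Tgfbi (Pearson r 0.987, 0.978 and 0.976), and they were high in the same 3 libraries. Slc39a14, a zinc and iron importer induced in inflammation, lay at 130.3, 140.6 and 130.6 CPM in libraries 3, 5 and 11, beside 136, 130.6 and 159.5 CPM in the day 7 injured ones, and far above the next naïve library (41.1 CPM). Il1r1, the interleukin-1 receptor, lay at 42.8, 45.2 and 41.7 CPM in the same 3 libraries, and the other 12 libraries without the injured knee of day 7 lay at or under 32.3 CPM.

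Markers of the synovial lining moved unevenly with Pdpn. Prg4, lubricin of the lining and of superficial cartilage, was highest outside day 7 injury in libraries 3, 5 and 11, at 1775, 1649 and 1409 CPM, but Clic5 was lowest there, at 24.1, 22.9 and 24.9 CPM. Tspan15, the third marker of that list, was also lowest in the 3 libraries (9.15, 9.25 and 8.91 CPM). The list as a whole summed to 1808, 1681 and 1443 CPM in them, with Prg4 as its most abundant gene and no marker at 0. None of its 3 genes was called at day 7 after injury over naïve knees, beside 10.4% of all genes called higher and 6.11% lower. Their log2 fold changes were 0.65 (SE 0.425) for Prg4, 0.30 (SE 0.298) for Tspan15 and -0.25 (SE 0.464) for Clic5. Of 5 lymphatic markers, Lyve1 lay at 10.9, 8.88 and 7 CPM in the 3 libraries, below the naïve mean of 17.7 CPM. The part of other cells in the Pdpn of these libraries was not tested.

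**Figure D2:**
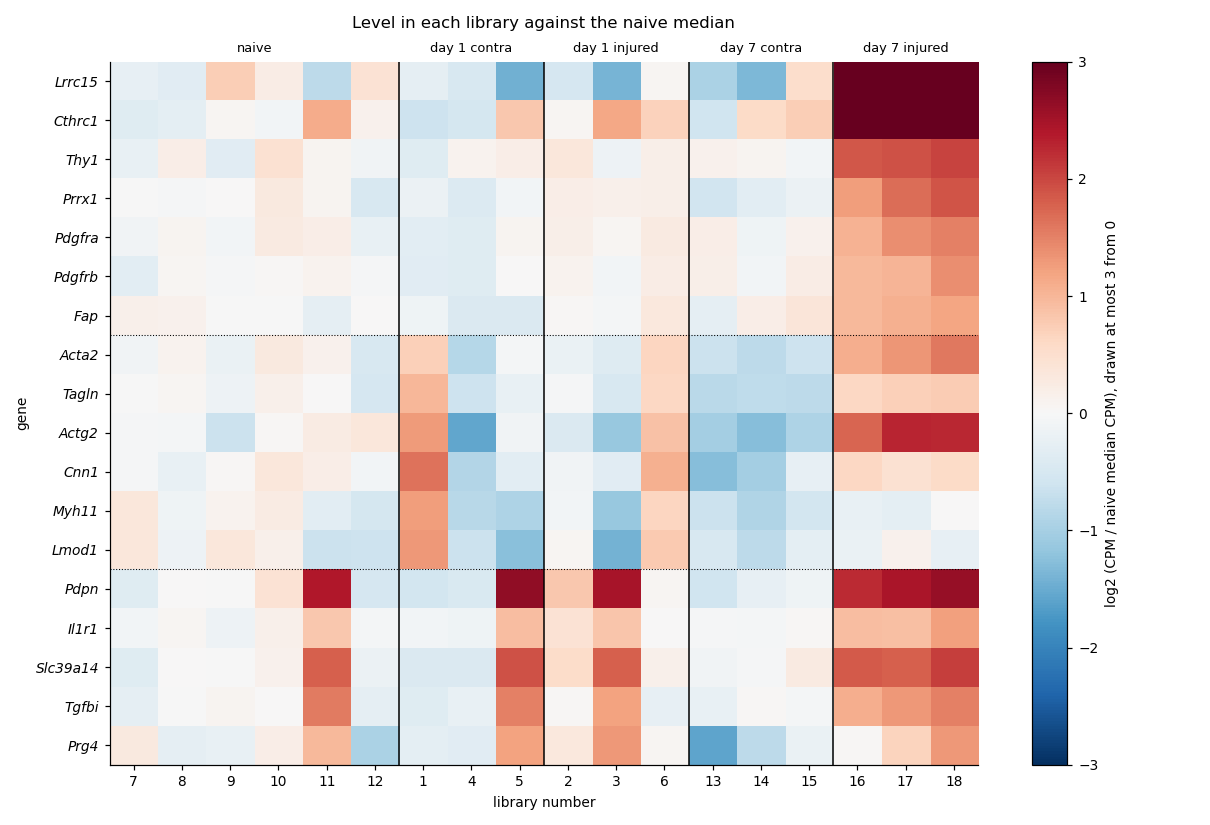
Log2 of CPM over the naïve median in each of the 18 libraries for the 10 genes, 4 smooth muscle genes (Actg2, Cnn1, Myh11 and Lmod1) and 4 genes seen with Pdpn; colours stop at 3 on either side. Pdpn, Il1r1, Slc39a14 and Tgfbi are red in libraries 3, 5 and 11 as well as at day 7 after injury. Prg4 is red in libraries 3, 5 and 11 but not in every day 7 injured library, and the contractile block is red in libraries 1 and 6.

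Cthrc1 (chr15:39076932-39087121) encodes a secreted glycoprotein of matrix-producing fibroblasts. It lay at 145.5, 185.1 and 255.7 CPM in the day 7 injured libraries and between 4.33 and 15 CPM in the 15 others. Naïve libraries ran from 5.19 over a median of 6.69 to 14.4 CPM. Over naïve knees this was a log2 fold change of 4.69 (SE 0.353), and 4.45 to 4.96 when any 1 of the 9 libraries of this contrast was left out. Its highest value outside day 7 injury was in library 3 (15 CPM), its highest naïve value in library 11 (14.4 CPM), and its highest day 1 contralateral value in library 5 (11.8 CPM), the same 3 libraries that stood out in Pdpn.

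The contractile genes were split. Acta2 (chr19:34241090-34255590), smooth muscle alpha-actin, lay at 98.9, 117.3 and 139.1 CPM in the day 7 injured libraries, against a naïve range of 33.6 over a median of 46.7 to 56.8 CPM. In the day 7 contralateral libraries it lay at 29.7, 26.9 and 30.3 CPM, and in the day 1 contralateral ones at 76.7, 25.8 and 44.8 CPM. The injured libraries of day 7 were above all others, but library 1 (76.7 CPM) and library 6 (day 1 injured, 73.1 CPM) came within 1.5-fold of the lowest of them. Acta2 had a log2 fold change of 1.38 (SE 0.271) over naïve knees and 2.03 (SE 0.320) over the contralateral ones. The skeletal muscle actin Acta1, whose transcript resembles that of Acta2 so that reads may be shared between them, ran from 377 to 2645 CPM and was lower in the day 7 injured libraries (893.7, 377 and 766 CPM) than in most others.

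Tagln (chr9:45929619-45936058), transgelin or SM22, is an actin-binding protein that is regulated together with Acta2 in smooth muscle. It lay at 38.7, 41.3 and 42.8 CPM in the day 7 injured libraries, at 50.2 CPM in library 1 and at 38.9 CPM in library 6. The naïve libraries ran from 17.7 over a median of 25.2 to 28.1 CPM, and the day 7 contralateral ones were close together at 14.3, 14.9 and 14.6 CPM. A contralateral knee of day 1 thus held the most Tagln of all 18 libraries. The log2 fold change over naïve knees was 0.78 (SE 0.280), the smallest of the 10. Tagln was not called when any 1 of the 9 libraries of this contrast was left out, with a value of 0.70 without naïve library 12.

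Over the 18 libraries the genes most like Acta2 were Actg2, Tagln and Ociad2 (Pearson r 0.958, 0.934 and 0.926). Actg2, the enteric smooth muscle actin, had 4.22 CPM in library 1 and 3.19 CPM in library 6, a naïve mean of 1.75 CPM, and 5.81, 8.49 and 8.28 CPM in the day 7 injured libraries. The markers of mature smooth muscle set the libraries apart. Myh11 lay at 98.2 CPM in library 1 and 64.7 CPM in library 6, but at 35.3, 33.8 and 41.3 CPM in the day 7 injured libraries, where the naïve mean was 40.8 CPM. Lmod1 was likewise highest in library 1 (8.56 CPM) and lay at 3, 3.8 and 2.91 CPM in the day 7 injured libraries against a naïve mean of 3.36 CPM. Cnn1, a calponin of smooth muscle, was at 6.44 CPM in library 1 and 4.39 CPM in library 6, and at 3.22, 2.85 and 3.10 CPM in the day 7 injured libraries, above the naïve range of 1.79 to 2.63 CPM (log2 fold change 0.52, SE 0.430, not called). The high Acta2 of libraries 1 and 6 thus came with high Myh11, Lmod1 and Cnn1. In the injured knee at day 7 Myh11 and Lmod1 lay near their naïve means, and Cnn1 lay above the naïve libraries but below libraries 1 and 6.

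Pericytes and smooth muscle cells together are called mural cells, and their list of 10 markers was mixed. The list summed to 711, 777 and 867 CPM in the day 7 injured libraries, 391 to 533 CPM in naïve ones, 402, 415 and 436 CPM in day 7 contralateral ones, 397, 400 and 546 CPM in day 1 contralateral ones and 381, 513 and 685 CPM in day 1 injured ones. Of the 10, 4 were called higher over naïve knees, beside 10.4% of all genes, and none lower, with a median log2 fold change of 0.52. Mcam (1.19, SE 0.162) and Rgs5 (1.08, SE 0.257), the latter the most abundant of the list, had the highest values, and Myh11 the lowest (-0.13, SE 0.431). No mural marker was at 0 in every library. Their part in the levels of Acta2, Tagln and Pdgfrb was not tested.

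The wider contractile list was mixed. Of its 21 genes, 5 were called higher and none lower, where 10.4% of all genes were called higher, with a median of 0.13. Actg2 (2.11, SE 0.436) and Cnn3 (1.99, SE 0.115), a non-muscle calponin, had the largest log2 fold changes, and Tpm2, a muscle tropomyosin, had the smallest (-0.89, SE 0.436). None of the 4 genes of the SRF list was called, with a median of -0.04; Mrtfb was at 0.51 (SE 0.116), Srf at -0.01 (SE 0.112) and Mrtfa at -0.11 (SE 0.0698).

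Pdgfra (chr5:75152292-75198215) and Pdgfrb, the receptors for PDGF, behaved alike. Pdgfra lay at 202.3, 261.7 and 282.7 CPM in the day 7 injured libraries and between 76.2 and 118.6 CPM in the 15 others. Pdgfrb lay at 173.7, 179.4 and 231.1 CPM in the day 7 injured libraries and between 68.8 and 103.6 CPM in the 15 others. Neither receptor overlapped between the injured knee of day 7 and any other group. The log2 fold changes over naïve knees were 1.32 (SE 0.129) for Pdgfra and 1.18 (SE 0.115) for Pdgfrb.

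The PDGF ligand list held 5 genes, the ligands Pdgfa, Pdgfb, Pdgfc and Pdgfd and the receptor-like Pdgfrl, which is not a ligand. Of the 5, 4 were called higher over naïve knees, beside 10.4% of all genes, with a median of 1.02. Pdgfrl, a soluble receptor-like protein, had the largest log2 fold change (2.45, SE 0.158), from a mean of 6.94 CPM to 37.5 CPM, followed by Pdgfc (1.27, SE 0.180). Pdgfb, the ligand of Pdgfrb that endothelial cells make, had the smallest (0.56, SE 0.101) and was the one not called. Of 9 endothelial markers 5 were called higher, beside the same 10.4% of all genes, with a median of 0.59. Emcn was at 1.04 (SE 0.145), Tie1 at 0.75 (SE 0.111) and Vwf at -0.37 (SE 0.116).

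Prrx1 (chr1:163245119-163313710), a homeobox transcription factor of limb mesenchyme and fibroblasts, lay at 150.1, 201.7 and 232.3 CPM in the day 7 injured libraries. The 15 others lay between 42.7 and 77.3 CPM, with day 1 injured libraries close together at 72.6, 69.8 and 71.6 CPM. Over naïve knees Prrx1 was 1.64 higher on the log2 scale (SE 0.140). Its relative Prrx2 led the mesenchymal transcription factors (2.70, SE 0.363), although at a mean of only 12.3 CPM after injury, with Osr2 next (2.56, SE 0.280) and Zeb2 at the bottom (-0.04, SE 0.0912). Of the 11 tested of these 12 genes, 9 were called higher and none lower, beside 10.4% and 6.11% of all genes, and their median was 1.26.

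**Figure D3:**
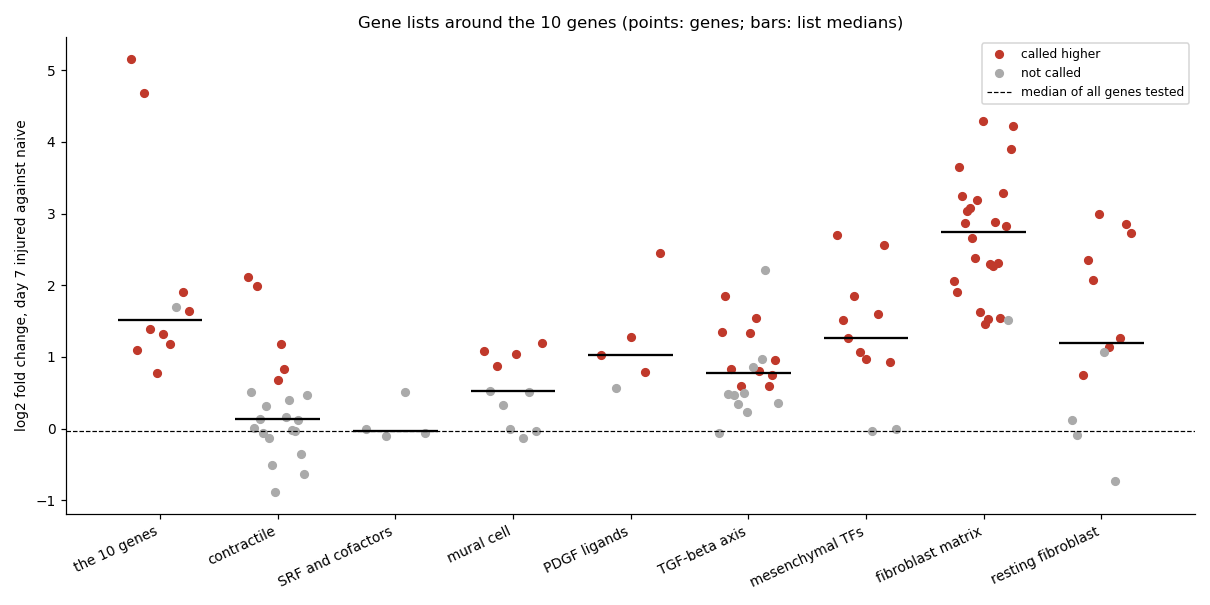
Log2 fold change of each tested gene between day 7 injured and naïve libraries, by list; points are genes, red where called higher and grey where not called, bars are list medians, and the dashed line is the median of all genes tested (-0.04). The matrix list has the highest median (2.74), and the contractile list (0.13) and SRF list (-0.04) lie near the dashed line.

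Activated fibroblasts secrete collagens and other matrix proteins. Of 24 matrix genes, 23 were called higher and none lower in day 7 injured over naïve knees, beside 10.4% and 6.11% of all genes. The median log2 fold change of the list was 2.74. Postn, or periostin (4.29, SE 0.433), and Aspn, or asporin (4.22, SE 0.274), had the largest values, with Postn going from a mean of 145.7 CPM to 2820.8 CPM. Tnc, or tenascin-C, had the smallest (1.47, SE 0.131), and Timp1 was the one not called. Col1a1, the most abundant gene of the list, took 39.9% of its summed counts. The list summed to 135776, 136575 and 160520 CPM in the day 7 injured libraries and to 91722 CPM in library 13, where the other day 7 contralateral libraries held 34414 and 46040 CPM. Col1a1 (52440.5 CPM) and Col1a2 (27122.7 CPM) held most of the sum in library 13. Without these 2 genes the list summed to 12159 CPM there and to 9494 and 11627 CPM in the other 2, and to 57432, 63346 and 76396 CPM in the day 7 injured libraries. The 10 fibroblast genes summed to 382.3 CPM in library 13 and to 375.2 and 434.7 CPM in the other 2.

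Of 20 genes of the TGF-beta axis, 10 were called higher and none lower over naïve knees, beside 10.4% and 6.11% of all genes, with a median of 0.78. Tgfb3 (1.86, SE 0.144) was called higher, and Tgfb1 had the smallest value (-0.07, SE 0.0843). Bambi, a decoy receptor for this family, was the one gene of all lists called in a contrast without the injured knee of day 7. It was 0.86 higher (SE 0.138, FDR 0.0457 by edgeR's quasi-likelihood test) in contralateral knees at day 7 than at day 1.

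Resting and adventitial fibroblasts have markers of their own. The counts of this paragraph stand beside 10.4% of all genes called higher and 6.11% called lower over naïve knees. Of 12 such genes, 8 were called higher and none lower, with a median of 1.20; Col14a1 (2.99, SE 0.187) and Lum (2.86, SE 0.128) were highest and Gsn lowest (-0.73, SE 0.294). All 5 tendon and ligament genes were called higher, with a median of 2.32, led by Tnmd (3.68, SE 0.370) and Scx (2.94, SE 0.227), and Mkx had the smallest change (1.25, SE 0.185). Tnmd lay at 89.1, 82.6 and 93.4 CPM in the day 7 injured libraries and at or under 13.2 CPM in the 15 others. Of 14 chondrocyte genes, 4 were called higher, among them Acan (1.57, SE 0.202) and Comp (1.39, SE 0.203), and Chad was called lower (-0.73, SE 0.259). The part of tendon, ligament or capsule tissue in the 10 genes was not tested.

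Markers of other cell types were mixed in the same contrast, in which 10.4% of all genes were called higher. None of 10 macrophage markers was called, with Cd14 at 0.81 (SE 0.428), C1qb at 0.58 (SE 0.144) and Itgam at -0.32 (SE 0.0918). Of 5 lymphatic markers, Ccl21a (1.49, SE 0.292) and Prox1 (1.46, SE 0.282) were called higher, with Lyve1 lowest (-0.42, SE 0.359). Of 8 bone genes, Ibsp was called higher (0.69, SE 0.116), Alpl was at 0.17 (SE 0.147), and Mepe, the lowest, was called lower (-0.61, SE 0.136). Adipocyte genes had the lowest median (-1.27), with 3 of 6 called lower, from Fabp4 (-0.66, SE 0.365) and Adipoq (-0.75, SE 0.353) to Cidec (-1.75, SE 0.541). Medians of the skeletal muscle (-0.76), erythroid (-0.60), neutrophil and marrow (-0.39) and proliferation (-0.24) lists were below 0 too, with 1 of 10, 4 of 7, 2 of 10 and 0 of 10 genes called lower, beside 6.11% of all genes, and none higher. In muscle these ran from Actn3 (-0.36, SE 0.431) and Atp2a1 (-0.43, SE 0.407) to Myh2 (-1.87, SE 0.676), and in red cells from Hbb-bt (-0.56, SE 0.203) and Hba-a2 (-0.58, SE 0.206) to Alas2 (-0.73, SE 0.158). The granule genes Ngp (-0.21, SE 0.180) and Ltf (-0.22, SE 0.188) were highest and S100a8 (-0.67, SE 0.199) lowest, and the dividing-cell genes ran from Cdc20 (-0.16, SE 0.0912) and Cdk1 (-0.17, SE 0.129) to Mki67 (-0.46, SE 0.115).

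The transcripts that carried the reads differed between the genes. For Acta2, a pair of protein-coding transcripts took 69.8% and 30.2% of its TPM in naïve libraries and 65.9% and 34.1% at day 7 after injury, with overlapping ranges. For Tagln, the main transcript took 83.5% and 74%, and the retained-intron one 6.67% to 16.4% in naïve and 2.81% to 6.47% in day 7 injured libraries. A short coding transcript of Tagln (369 bases) ran from 0% to 25% in naïve and from 19.2% to 27.4% in day 7 injured libraries, and since TPM is per length it stands for few reads, 0.674% and 3.9% of the counts of the gene. For Prrx1, no transcript took more than 40.2% of the TPM of the group, and the non-coding one went from 27.7% to 36.9% in naïve to 36.4% to 41.6% in day 7 injured libraries. The retained-intron share of Tagln in day 7 injured libraries did not overlap with naïve ones, but it did with day 7 contralateral (0% to 15.2%) and day 1 injured libraries (3.93% to 9.11%). For Fap, a retained-intron transcript of 2343 bases took 5.39% to 6.53% in naïve, 2.68% to 2.92% in day 7 injured and 2.91% to 3.18% in day 7 contralateral libraries. Its share was thus low in both knees of the loaded mice at day 7, a day that the labels also give to the naïve libraries. Of these shares, only that of Thy1 set the injured knee of day 7 apart from all 15 other libraries.

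Between genes, levels were compared per length with the deposited TPM. In naïve cartilage Acta2 was highest, with a median of 15.4 TPM, then Fap (13.7), Tagln (10.2), Pdgfra (9.78), Prrx1 (9.37), Pdgfrb (8.43), Thy1 (5.41), Cthrc1 (3.60), Pdpn (2.54) and Lrrc15 (0.374). Neighbours overlapped in their naïve ranges except Fap and Tagln, Pdgfrb and Thy1, and Pdpn and Lrrc15. Lrrc15 was thus the one gene set clearly below the rest, with 0.230 to 0.683 TPM. In the day 7 injured libraries Cthrc1 came first, with a median of 83.1 TPM that did not overlap with Acta2 (33.7 TPM), and Pdpn and Lrrc15 kept the last places. Lrrc15 at 10.8 TPM overlapped with Pdpn (12.4 TPM) above it.

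**Figure D4:**
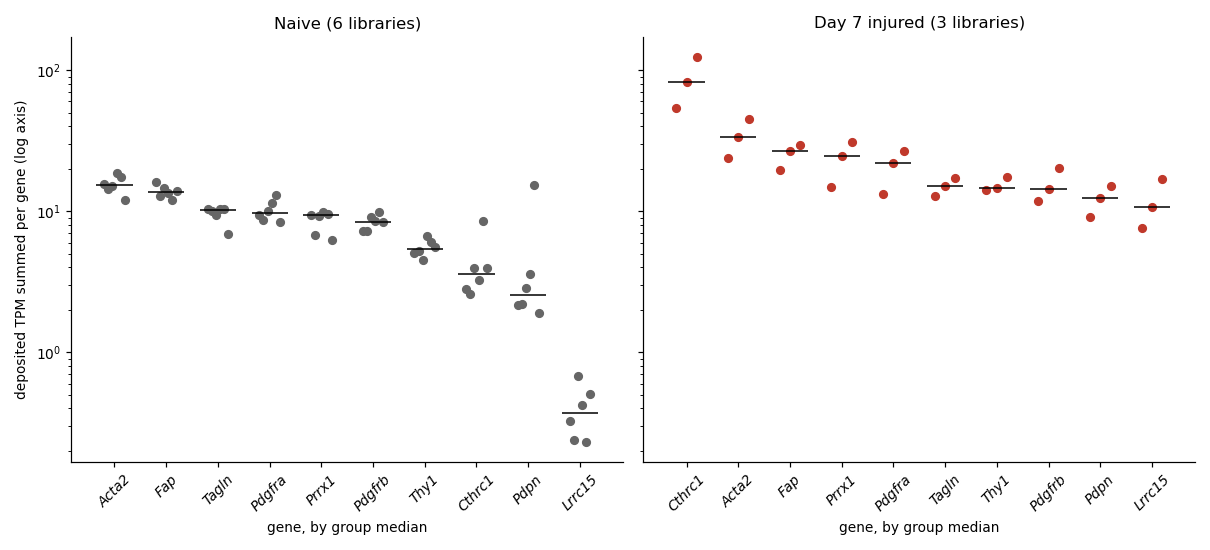
Deposited TPM summed per gene (log axis) in the 6 naïve and 3 day 7 injured libraries, with genes in order of the group median; points are libraries and lines are medians. Cthrc1 goes from the eighth place (3.60 TPM) to the first (83.1 TPM), and Lrrc15 from 0.374 to 10.8 TPM within the tenth place.

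The remaining contrasts asked whether the genes had changed at day 1, or in the opposite knee. By edgeR's quasi-likelihood test with Benjamini-Hochberg adjustment, none of the 10 genes was called in any of the 5 contrasts, where 0% of all genes were called in 4 of them and 0.0188% (4 genes) between contralateral knees at day 7 and day 1. DESeq2 called 15, 0, 2, 8 and 81 genes in the 5 contrasts, none of them among the 10, and limma-voom called 0 in each. At an unadjusted p under 0.05, the edgeR test found 959, 1383, 554, 3220 and 2638 genes, in the order day 1 injured against naïve, day 1 injured against contralateral, day 1 contralateral against naïve, day 7 contralateral against naïve, and contralateral at day 7 against day 1.

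**Figure D5:**
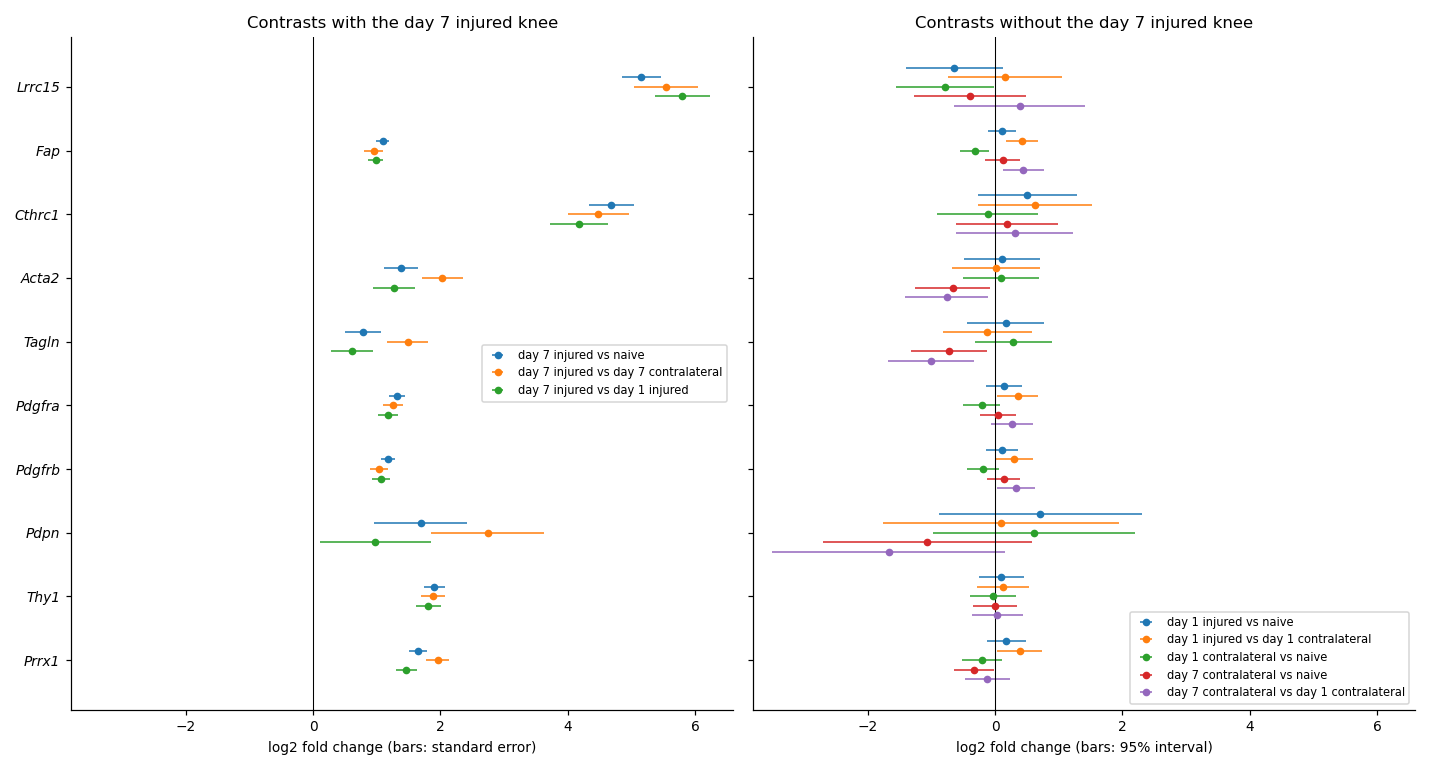
Log2 fold change of the 10 genes in the 3 contrasts with the day 7 injured knee (left, bars are standard errors) and the 5 contrasts without it (right, bars are 95% intervals). On the left every point is above 0; on the right no gene passed the FDR of 0.05, and the intervals are widest for Pdpn.

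At 1 day after rupture, the 10 genes did not differ detectably between injured and naïve knees. None of them had an unadjusted p under 0.05, and the FDRs were 0.987 to 0.995 (edgeR). Their median log2 fold change was 0.13, and 9 of the 10 were above 0. For Fap, Pdgfra, Pdgfrb, Thy1 and Prrx1 the 95% interval stayed within 1.5-fold in either direction (0.585 log2 units), as with Thy1 from -0.26 to 0.46 and Fap from -0.11 to 0.32. For the other 5 a change of that size was within the interval, which ran from -1.41 to 0.13 for Lrrc15, from -0.26 to 1.28 for Cthrc1 and from -0.88 to 2.30 for Pdpn. The log2 fold change of Pdpn was 0.71 with all libraries, -0.27 without library 3, 1.53 without library 11 and 0.54 without libraries 3, 5 and 11. Cthrc1 was at 0.51, and at 0.21 without library 3 or 0.80 without library 11. Lrrc15 was at -0.64, and at -0.32 without library 3 or -1.0 without library 6. Acta2 and Tagln were at 0.11 and 0.16, and at -0.26 and -0.18 without library 6. None of these was called (edgeR).

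Against the contralateral knee at day 1, 4 of the 10 genes had an unadjusted p under 0.05 (edgeR), as did 6.55% of all genes tested. All 4 were higher in the injured knee, and none passed the correction (edgeR, FDR 0.755 for each). Fap was 0.43 higher (95% interval 0.18 to 0.68), with 66.8, 62.6 and 81.7 CPM in injured and 59.9, 48.3 and 48.3 CPM in contralateral libraries, which did not overlap. Prrx1 was 0.38 higher (0.03 to 0.74), with all 3 injured libraries above the contralateral ones (56, 47.6 and 59.8 CPM). The background for this separation was 5.09% of 21262 genes. Pdgfra (0.35) and Pdgfrb (0.30) overlapped between the groups through library 5, and were at 0.51 and 0.44 without it. Pdpn was at 0.10, at 1.97 without library 5 and at -0.89 without library 3. Without library 1, Acta2 went from 0.02 to 0.49 and Tagln from -0.12 to 0.50, and without library 6 they were at -0.36 and -0.47. Markers of other cell types were shifted in this contrast too, with none called. All 14 chondrocyte, 5 tendon and 6 adipocyte genes were above 0, with medians of 0.30, 0.73 and 0.43. So were 23 of 24 matrix genes (median 0.56). Of the 9 T cell and 7 erythroid genes none was above 0, with medians of -0.38 and -0.37. The contralateral knee of day 1 was itself low in Fap, at -0.32 against naïve knees, and in Lrrc15, at -0.79 (-0.48 without library 5), both with an edgeR FDR of 1, so that the day 1 difference in Fap lay on both sides of the naïve level. Against naïve knees this group had no chondrocyte, tendon or adipocyte gene above 0, with medians of -0.36, -0.70 and -0.32. Of 24 matrix genes 2 were above 0 (median -0.37), and all 9 T cell genes were (median 0.16).

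In the opposite knee at day 7, Acta2 and Tagln had their lowest group means, 28.9 and 14.6 CPM. Tagln was at -0.72 against naïve knees (95% interval -1.32 to -0.12, FDR 0.269, edgeR), or -0.44 (FDR 0.549) with an offset for transcript length, and Acta2 at -0.67 (-1.25 to -0.08, FDR 0.283). All 3 contralateral libraries were below all 6 naïve ones in both genes, as for 2.41% of all 21262 genes. The smooth muscle genes Myh11 (26.3, 21.9 and 28.1 CPM) and Cnn1 (0.857, 1.03 and 1.76 CPM) also lay below all naïve libraries. So did Actg2 (0.857, 0.713 and 0.912 CPM), while Lmod1 overlapped with them. The mural list had a median of -0.29 in this contrast, with 2 of 10 genes above 0 and none called. The part of mural cells in these values was not tested. Prrx1 was at -0.33 (FDR 0.313). Against the day 1 contralateral knee, Tagln was at -1.01 (FDR 0.311) and Acta2 at -0.76 (FDR 0.361), and Fap (0.44, FDR 0.320) and Pdgfrb (0.33, FDR 0.372) had values above 0. Those of Tagln and Acta2 rested on library 1, without which they were -0.38 (FDR 0.669) and -0.29 (FDR 0.764), and Pdgfrb was at 0.47 without library 5. None of these passed the correction. The log2 fold change of Tagln at day 7 after injury was 1.49 (SE 0.323) over the contralateral knee beside 0.78 over naïve knees, and these contrasts share the injured libraries.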

How the data were processed

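The 18 libraries were total RNA without ribosomal RNA, sequenced from pooled cartilage. The authors trimmed the reads and ran Kallisto on the mouse transcripts of GRCm38, while the submitters' processing notes name kallisto, DESeq2 and the build GRCh38. The identifiers are those of mouse. The authors deposited estimated counts per transcript, not normalized, beside TPM and effective lengths, and the deposited TPM are scaled within each library.

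Estimated counts of 135107 of 137436 transcripts (98.3%) were matched to GENCODE genes of GRCm38, summed over 49184 genes and rounded, and the 2329 unmatched ones held 0.667% to 3.90% of a library. Library totals ranged from 16074762 to 41794005, with a median of 25465706. Genes were tested with the quasi-likelihood test of edgeR 4.0.16 (limma 3.58.1, R 4.3.3) with TMM normalization, its filter on low counts and a mean per group. P-values were adjusted by Benjamini-Hochberg over all genes, and calls needed an FDR of at most 0.05 and 1.5-fold. Contrasts with the day 7 contralateral group used 18 libraries, the others 15. Alternatives were DESeq2 1.42.0, its size factors, limma-voom, no filter, an offset for transcript length and leaving out libraries. The method was tested on simulated data. Standard errors were derived from the F statistics, and the low end of each level is limited by counting error.

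The 10 genes and all lists were chosen with earlier results of these data known. Of each list, the 2 genes with the largest and the 1 with the smallest log2 fold change over naïve knees are named, apart from an item not reported here, and for Lrrc15, Acta2 and Pdpn the 3 genes with the highest Pearson r of log2 CPM (prior count 2). Acta1, Lmod1, Cnn1, Timp1, Col1a1, Col1a2, Col2a1 and Acan's level were named after their values were seen. The authors removed 1 library of low mapping rate, which is not named. Whether the counting used strand is not given in the sources used here.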

Additional observations from a re-analysis of the deposited data

Results flagged for a closer look

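In the naïve group, library 11 lay apart from the 5 others in 2 of the 10 genes. Its Pdpn was 45.5 CPM, with the next naïve library at 11.7 CPM, a gap of 0.859 of the whole naïve range. Its Cthrc1 was 14.4 CPM, with the next at 7.31 CPM, a gap of 0.769 of the range. Both gaps exceeded Dixon's 95% critical value for 6 libraries, and chance passes it in about 1 of 20 groups. Groups of 3 libraries were not checked.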

How the results depend on the processing

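None of the 10 genes was called in the 5 contrasts without the day 7 injured knee under any of the settings run, including each left-out library. Against naïve knees the number called was 9, 8 to 10 under other settings and 8 to 9 with a library left out. Tagln was lost with DESeq2's size factors, and Pdpn was gained with limma-voom. Against the day 7 contralateral knee it was 10 in every other setting and 9 with any library left out, Pdpn being lost. Against the day 1 injured knee it was 8 in every other setting and 7 to 8 with a library left out, Acta2 being lost without library 2 or library 3. Without libraries 3, 5 and 11 together, chosen after seeing the data, the numbers were 10, 10 and 8, the last with Pdpn gained and Acta2 lost, and Pdpn over naïve knees was 2.48. With the deposited TPM, the number of genes with every day 7 injured library above the 15 others was 3 in place of 8. Above the naïve libraries alone it was 9 on both scales, beside 17.3% (CPM) and 4.58% (TPM) of all genes. No log2 fold change of the 10 genes in the 3 contrasts with the day 7 injured knee changed direction, while between 3 and 5 of the 10 genes, none of them called, crossed 0 under some setting in each of the 5 others. No paired analysis was possible because no label tells which libraries of the 2 knees came from the same mice, and the library numbers pair nothing. The authors' own model had a correlation between libraries of 1 mouse pool, which was not used here. Lrrc15 rested on as few as 25 estimated counts in a library outside the injured knee of day 7, Cthrc1 on as few as 57 and Pdpn on as few as 73.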
